A study of Mus musculus with 4 samples.

Results

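Nucleoporins and nuclear transport receptors were compared between protrusions and cell bodies of mouse melanoma cells. This group of genes was chosen with earlier results of these data known. The genes were taken by symbol, without use of their levels: every Nup gene with a number, Nupl1 and Nupl2, the importins (Kpna, Kpnb1, Ipo and Tnpo genes), the exportins (Xpo genes), the Ranbp genes with one digit, and Ran, Rangap1, Rcc1, Ndc1, Tpr, Pom121, Seh1l, Rae1, Aaas, Nutf2 and Nxf1. This gave 61 of the 16537 genes in the deposited table, of which 29 encode nucleoporins and 32 encode receptors, parts of the Ran cycle or proteins with a Ran-binding name. Of these, 59 had a mean level of at least 1 TPM, a unit that divides reads by gene length and scales every library to the same total, and were tested. The other 2 were Kpna7, an importin α, with 2 reads in cell bodies replicate 1 and none in the other libraries, and Nup210, a membrane nucleoporin, with at most 6 reads in any library.

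Nuclear pores are the channels through which proteins and RNA pass between nucleus and cytoplasm. Each pore is built of nucleoporins arranged as an outer ring, an inner ring, a membrane anchor, a central channel lined with phenylalanine-glycine repeats, cytoplasmic filaments and a nuclear basket. Importins carry cargo inward and exportins carry it outward. The small GTPase Ran, bound to GTP in the nucleus and to GDP in the cytoplasm, sets the direction.

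The 4 libraries came from wildtype YUMM1.7 cells, a mouse melanoma line whose engineered changes include activated Braf. Cells were grown overnight on inserts with 1-µm pores whose underside carried fibronectin, and each of 2 biological replicates pooled 6 inserts. Material scraped from the top formed the cell bodies, and what stayed in the cleaned membrane formed the protrusions, so each replicate gave 1 library of each fraction, called below the first (replicate 1) and the second (replicate 2) library of that fraction. The comparison asks which mRNAs are relatively more or less abundant in protrusions, in 1 line and with no other genotype or treatment.

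Libraries held 25854947 to 30994908 reads assigned to genes, as recovered from the TPM values. Protrusions replicate 1 stood apart: the summed level of 20 liver markers was 68.2 TPM there and 1.58 to 3.75 TPM in the other libraries, and Alb alone was at 28.4 TPM there and at most 0.460 TPM elsewhere. Whether this material had a part in the results below was not tested, and values without that library are given for each gene named below as called with or without a replicate block. Of 10 melanocyte markers, 5 were in the table, with Pmel, Tyr and Ednrb at 0.762 TPM or less, Mitf at 5.12 to 6.17 TPM and Pax3 at 12.4 to 14.6 TPM. Of 8 neural crest and mesenchymal markers, Vim was the highest, at 5187 to 7557 TPM. Sox9 was at 4.16 to 13.1 TPM and Ngfr at 0.0226 TPM or less, and the others lay between Sox9 and Vim. Endothelial and epithelial markers summed to at most 0.214 TPM, and immune markers to at most 3.98 TPM. TPM gives a share of each library, so fewer copies in protrusions and more of other RNA there cannot be told apart.

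Stretches of G and A in 3′ untranslated regions (UTRs) are known localization elements of several mRNAs of protrusions, among them Rab13. For that reason the longest uninterrupted run of G and A was read from the 3′ UTR of 1 GENCODE M21 transcript per gene (GRCm38, the mm10 build), on the mRNA strand only. Below it is shown in capitals within 30 bases, 5′ to 3′, for the 2 transport genes higher in protrusions by limma with or without a replicate block (Xpo6 and Ranbp9), for 2 of the lower nucleoporins (Nup155 and Nup107), for the member with the longest run (Kpnb1) and for Rab13, which is no member.
Xpo6 (8 bases, chr7:126101876-126101905, minus strand): ccagccagcccAGGAGAAAttcgacattgg
Ranbp9 (22 bases, chr13:43403217-43403246, minus strand): tgttGGGGGGAGAAGGGGGAAGGAAAtgga
Kpnb1 (24 bases, chr11:97161838-97161867, minus strand): tatGGGGGGAGGGGGGAGAAAGGAGAActc
Nup155 (22 bases, chr15:8159056-8159085, plus strand): aaccAAGAGAAGAGAGAGAGAAAAAGtgaa
Nup107 (9 bases, chr10:117750814-117750843, minus strand): gcccatgactAGAGGAGGAtgcttgcttgc
Rab13 (23 bases, chr3:90225784-90225813, plus strand): tttGAGAAGAGGAAAGGAAGAAGAAAtgaa

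A run as long as that of Xpo6 occurred in 86.7% of the 10454 3′ UTRs of tested genes, and one as long as that of Nup107 in 79.7%. Runs of the length in Ranbp9 and Nup155 occurred in 7.83%, and of the length in Kpnb1 in 6.12%. Ranbp9 and Nup155 had equally long runs and opposite signs of the fold change. The median longest run was 11 bases in 58 members and 12 bases over all tested genes. Spearman's correlation between run length and fold change was 0.10 over those 58 members and 0.03 over all 10454 genes, which is a description of genes that share 4 libraries. Rab13 itself measured 23.7 and 20.8 TPM in the cell bodies and 63.4 and 66.8 TPM in the protrusions.

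Of the 59 members tested, 4 were lower and 1 was higher in protrusions by limma on log2(TPM + 0.5) with a Benjamini-Hochberg adjusted p under 0.05 over all 11400 tested genes. The lower genes were the nucleoporins Nup155, Ranbp2, Ndc1 and Nup107, and the higher gene was the exportin Xpo6. Over all tested genes, 4.25% were lower and 2.99% were higher, so the members' shares of 6.78% and 1.69% lay near that background. The median log2 fold change, protrusions relative to cell bodies throughout, was -0.12 for the members and -0.07 for all tested genes. At an unadjusted p under 0.05 there were 19 members (32.2%), 16 lower and 3 higher, against 31.3% of all tested genes. Both protrusion libraries lay below both cell body libraries for 27 members (45.8%, against 37% of all tested genes) and above them for 12 (20.3%, against 26.4%).

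Blocking on the replicate number added 8 members. With the block, 11 members were lower and 2 higher in limma, against a background of 13.3% and 8.08% of all tested genes. The added lower genes were Xpo1, Kpna2, Ranbp6, Nxf1, Nup205, Nup88 and Ipo7, and the added higher gene was Ranbp9. None of these 8 passed in limma without the block when the first protrusion library was left out, with log2 fold changes of -0.73 for Xpo1, -0.54 for Kpna2, -0.90 for Ranbp6, -0.68 for Nxf1, -0.71 for Nup205, -0.43 for Nup88, -0.40 for Ipo7 and 0.53 for Ranbp9 and adjusted p from 0.0663 (Xpo1) to 0.217 (Nup88). Without the first protrusion library, 2 members (Ranbp2 and Nup155) were lower and none was higher in limma, with backgrounds of 1.26% and 0.123%, and at an unadjusted p under 0.05 the counts were 12 and 2, against 18% and 7.46% of all tested genes. With the first or the second cell body library or the second protrusion library left out, limma called none of the 11400 genes, while 18, 8 and 8 members were lower at an unadjusted p under 0.05 (against 17.5%, 10.5% and 9.32% of all tested genes) and 4, 4 and 2 were higher (against 10.2%, 10.2% and 7.33%). Limma voom on the read counts recovered from the TPM values gave 6 lower members (Ranbp2, Nup107, Nup155, Nxf1, Ranbp6 and Ndc1) and 2 higher ones (Xpo6 and Ranbp9), against 7.27% and 8.11% of all tested genes.

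**Figure D1:**
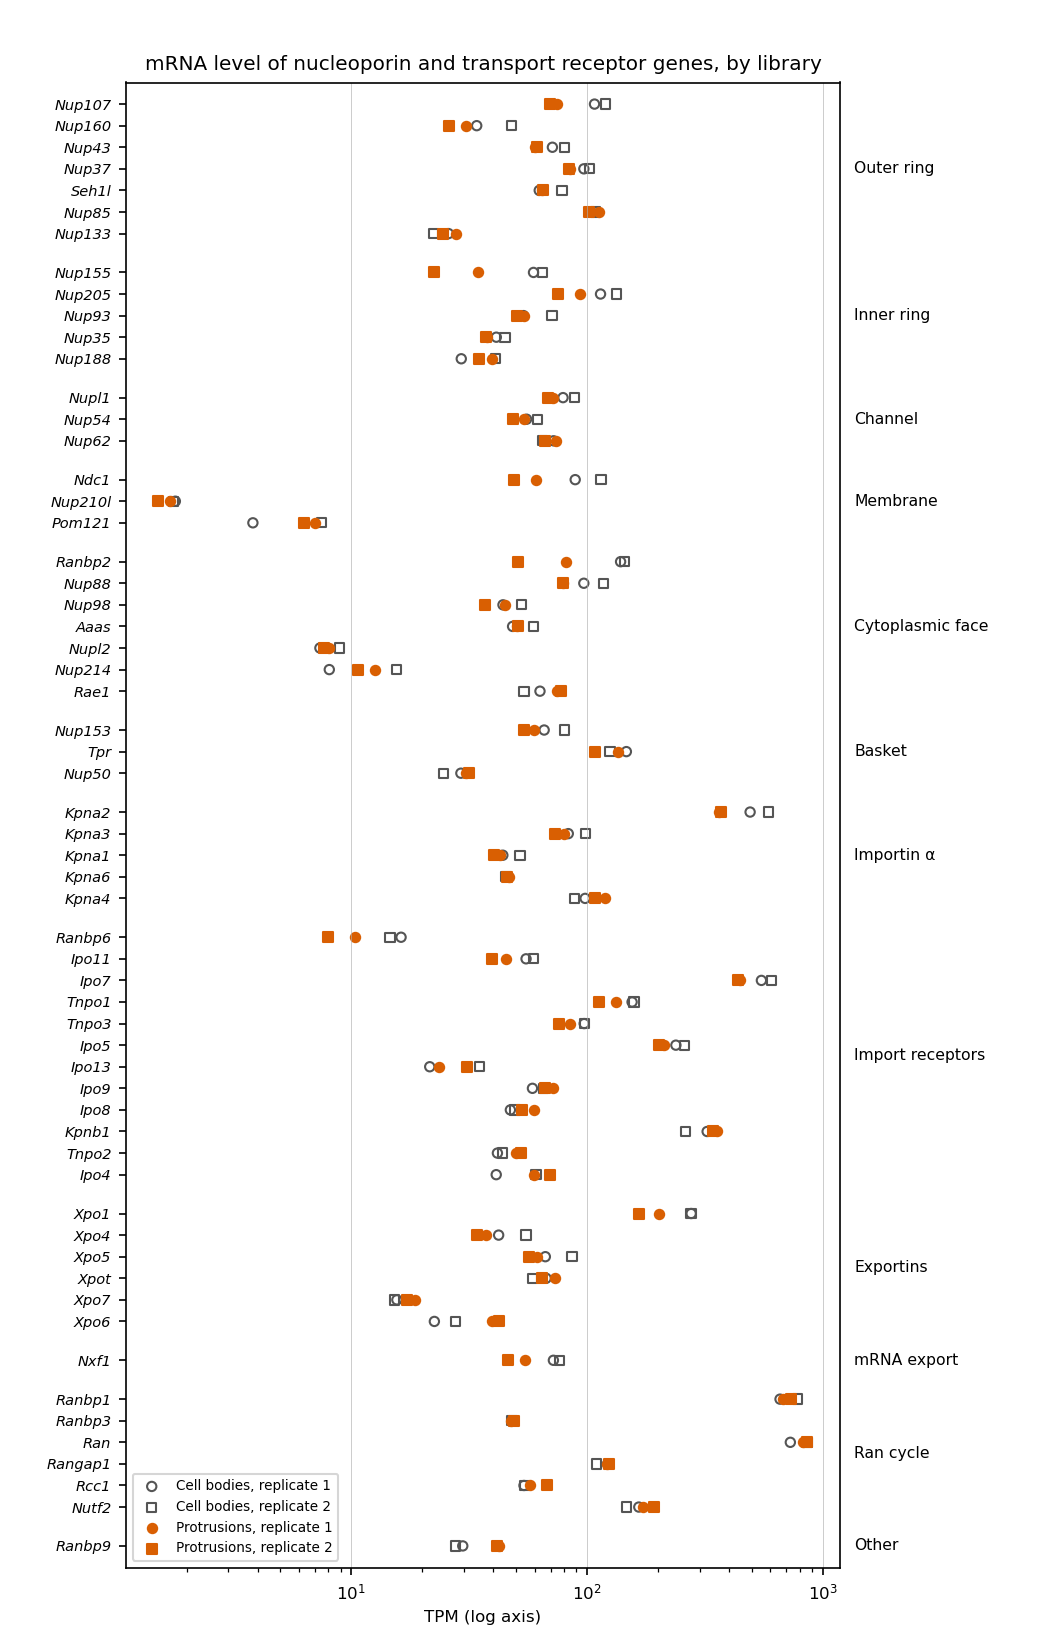
Level of each tested gene in TPM on a log axis, by role, with circles for replicate 1 and squares for replicate 2, open for cell bodies and filled for protrusions. Filled symbols of Nup107, Nup155, Ndc1 and Ranbp2 lie left of the open ones and those of Xpo6 and Ranbp9 lie right of them, while levels run from below 2 TPM for Nup210l to between 728 and 862 TPM for Ran.

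The outer ring, or Y complex, is the scaffold that lines both faces of the pore. Nup107, one of its core subunits, measured 108 and 119 TPM in cell bodies and 74.6 and 69.5 TPM in protrusions. The fractions did not overlap, and the log2 fold change was -0.65 (SE 0.12, 95% confidence interval -0.94 to -0.36, limma adjusted p = 0.0408), or 1.57-fold lower in protrusions. Its log2 fold change ranged from -0.73 to -0.58 when 1 library was left out. Dropping the first or the second cell body library gave a limma adjusted p of 0.0921 or 0.173, and dropping the first or the second protrusion library gave 0.0823 or 0.202. The gene lies at chr10:117750643-117792705 on the file's mm10 coordinates.

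No other outer ring gene passed the test with or without the block. Nup160, which forms an arm of the Y, measured 34.0 and 47.9 TPM in cell bodies and 30.5 and 26.0 TPM in protrusions (log2 fold change -0.51, SE 0.20, adjusted p = 0.144 by limma). Nup43, a peripheral subunit, gave -0.32 (SE 0.12, limma adjusted p = 0.139), and, as for Nup107 and Nup160, its fractions did not overlap. In 4 of the 7 outer ring genes both protrusion libraries lay below both cell body libraries, against 37% of all tested genes. At the other end of the ring stood Nup133, at 25.8 and 22.3 TPM in cell bodies and 27.8 and 24.6 TPM in protrusions, with a fold change of 0.12 (95% confidence interval -0.24 to 0.48). Nup85 and Seh1l, which sit together on the other arm, gave -0.01 and -0.12, with overlapping fractions in both. Subunits of one complex thus carried fitted differences from -0.65 to 0.12, with a median of -0.24 over the 7.

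The inner ring holds the pore's membrane anchor and its channel in place. Nup155 measured 59.3 and 64.8 TPM in cell bodies and 34.6 and 22.4 TPM in protrusions. The fitted log2 difference was -1.14 (SE 0.22, 95% confidence interval -1.68 to -0.60, limma adjusted p = 0.0438), or 2.20-fold lower. It had the lowest fold change of the 59 members. The 2 protrusion libraries differed by more than the 2 cell body libraries, and both lay below them. It was -1.45 with the first protrusion library left out (limma adjusted p = 0.0469). Limma gave an adjusted p of 0.108 or 0.184 when the first or the second cell body library was dropped, and of 0.163 when the second protrusion library was dropped. Nup155 spans chr15:8109313-8159859.

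Nup205, a large scaffold of the same ring, measured 114 and 134 TPM in cell bodies against 93.6 and 75.0 TPM in protrusions. It passed only with the replicate block (log2 fold change -0.56, SE 0.15, limma adjusted p = 0.0793 without and 0.0219 with the block). Its paralogue Nup188, which occupies a like place in the ring, measured 29.3 and 40.8 TPM in cell bodies and 39.7 and 34.7 TPM in protrusions, with a fold change of 0.10 (95% confidence interval -0.37 to 0.57) and overlapping fractions. The difference between these paralogues was not tested. Nup93 and Nup35, linkers of the ring, gave -0.24 (limma adjusted p = 0.356) and -0.20 (limma adjusted p = 0.308).

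Among the membrane nucleoporins, Ndc1, a multipass protein that anchors the pore in the envelope, measured 89.1 and 115 TPM in cell bodies and 60.5 and 49.1 TPM in protrusions. The log2 fold change was -0.88 (SE 0.17, 95% confidence interval -1.31 to -0.45, limma adjusted p = 0.0451), 1.85-fold lower, with no overlap of the fractions. Dropping the first or the second cell body library gave a limma adjusted p of 0.0899 or 0.178, and dropping the first or the second protrusion library gave 0.0670 or 0.211. Pom121, the other anchor in this group, was scarce, at 3.82 and 7.48 TPM in cell bodies and 7.04 and 6.29 TPM in protrusions, and its interval of -0.48 to 1.05 left its sign undetermined. Nup210l, a relative of Nup210 known mainly from testis, stayed below 2 TPM in every library (fold change -0.11, 95% confidence interval -0.70 to 0.47) on as few as 130 reads.

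On the cytoplasmic face, Ranbp2 encodes the giant protein of the pore filaments, which binds Ran and carries SUMO ligase activity. It measured 139 and 144 TPM in cell bodies and 81.3 and 50.9 TPM in protrusions. The fitted log2 difference was -1.13 (SE 0.22, 95% confidence interval -1.68 to -0.58, limma adjusted p = 0.0451), or 2.19-fold lower. As for Nup155, the second protrusion library was the lower one and neither overlapped the cell bodies. With the first protrusion library left out the value was -1.47 (limma adjusted p = 0.0469). Limma gave an adjusted p of 0.115 or 0.187 when the first or the second cell body library was dropped, and of 0.158 when the second protrusion library was dropped. The annotation names 12 pseudogenes of Ranbp2, and the sources used here do not state how reads shared with them were assigned, so its level is uncertain. The gene spans chr10:58446852-58494154.

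Nup88, which forms a complex with Nup214 on this face, measured 96.9 and 117 TPM in cell bodies and 79.0 and 78.9 TPM in protrusions. It passed with the block only (log2 fold change -0.43, SE 0.13, limma adjusted p = 0.0951 without and 0.0384 with the block), and it overlaps Rabep1 in the annotation. Nup214 itself, at 8.06 and 15.6 TPM in cell bodies and 12.7 and 10.7 TPM in protrusions, had a fold change of 0.05 (95% confidence interval -0.72 to 0.81), and its 2 replicates had opposite signs. Rae1, the mRNA export factor that docks on Nup98, was the nucleoporin with the highest fold change, 0.37 (SE 0.13, limma adjusted p = 0.116), from 63.1 and 54.1 TPM in cell bodies and 74.3 and 77.5 TPM in protrusions. Nup98, whose gene also encodes the Y complex subunit Nup96, gave -0.24 (limma adjusted p = 0.347), and Nupl2 gave -0.04 at 7.36 to 8.91 TPM.

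The central channel and the basket showed no call in limma with or without the block or in limma voom, and none of their 6 genes had an unadjusted p under 0.05. Over all tested genes, limma gave 31.3% at an unadjusted p under 0.05, with 4.25% called lower and 2.99% higher. The block gave 13.3% and 8.08%, and limma voom gave 7.27% and 8.11%. Among so few genes, an absence of calls is no trait of these parts of the pore. Of the channel genes, Nupl1 gave -0.25, Nup54 gave -0.19 and Nup62 gave 0.03. The fractions of Nupl1 and Nup54 did not overlap, with protrusions the lower, as for 37% of all tested genes. Nup62 lies over Atf5 and Il4i1 in the annotation, and the sources used here do not state whether counting used strand. In the basket, Nup153 measured 65.8 and 80.4 TPM in cell bodies and 59.8 and 54.0 TPM in protrusions (-0.35, limma adjusted p = 0.162). Tpr, the coiled-coil filament of the basket, gave -0.17, and Nup50, a cofactor of import, gave 0.21 (limma adjusted p = 0.345).

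In all, 21 of the 28 tested nucleoporins had a negative fold change, against 56.9% of all tested genes, and their median was -0.19, against -0.07. Both protrusion libraries lay below both cell body libraries for 14 of the 28, against 37% of all tested genes. The summed level of the nucleoporins was 1753 and 1934 TPM in cell bodies and 1558 and 1399 TPM in protrusions, which is 80.2% of the cell body mean, or 75.9% without the first protrusion library. The membrane group had the lowest ratio of sums, 57.8% of the cell body mean (52.1% without the first protrusion library), a sum of which Ndc1 was the largest part in every library.

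**Figure D2:**
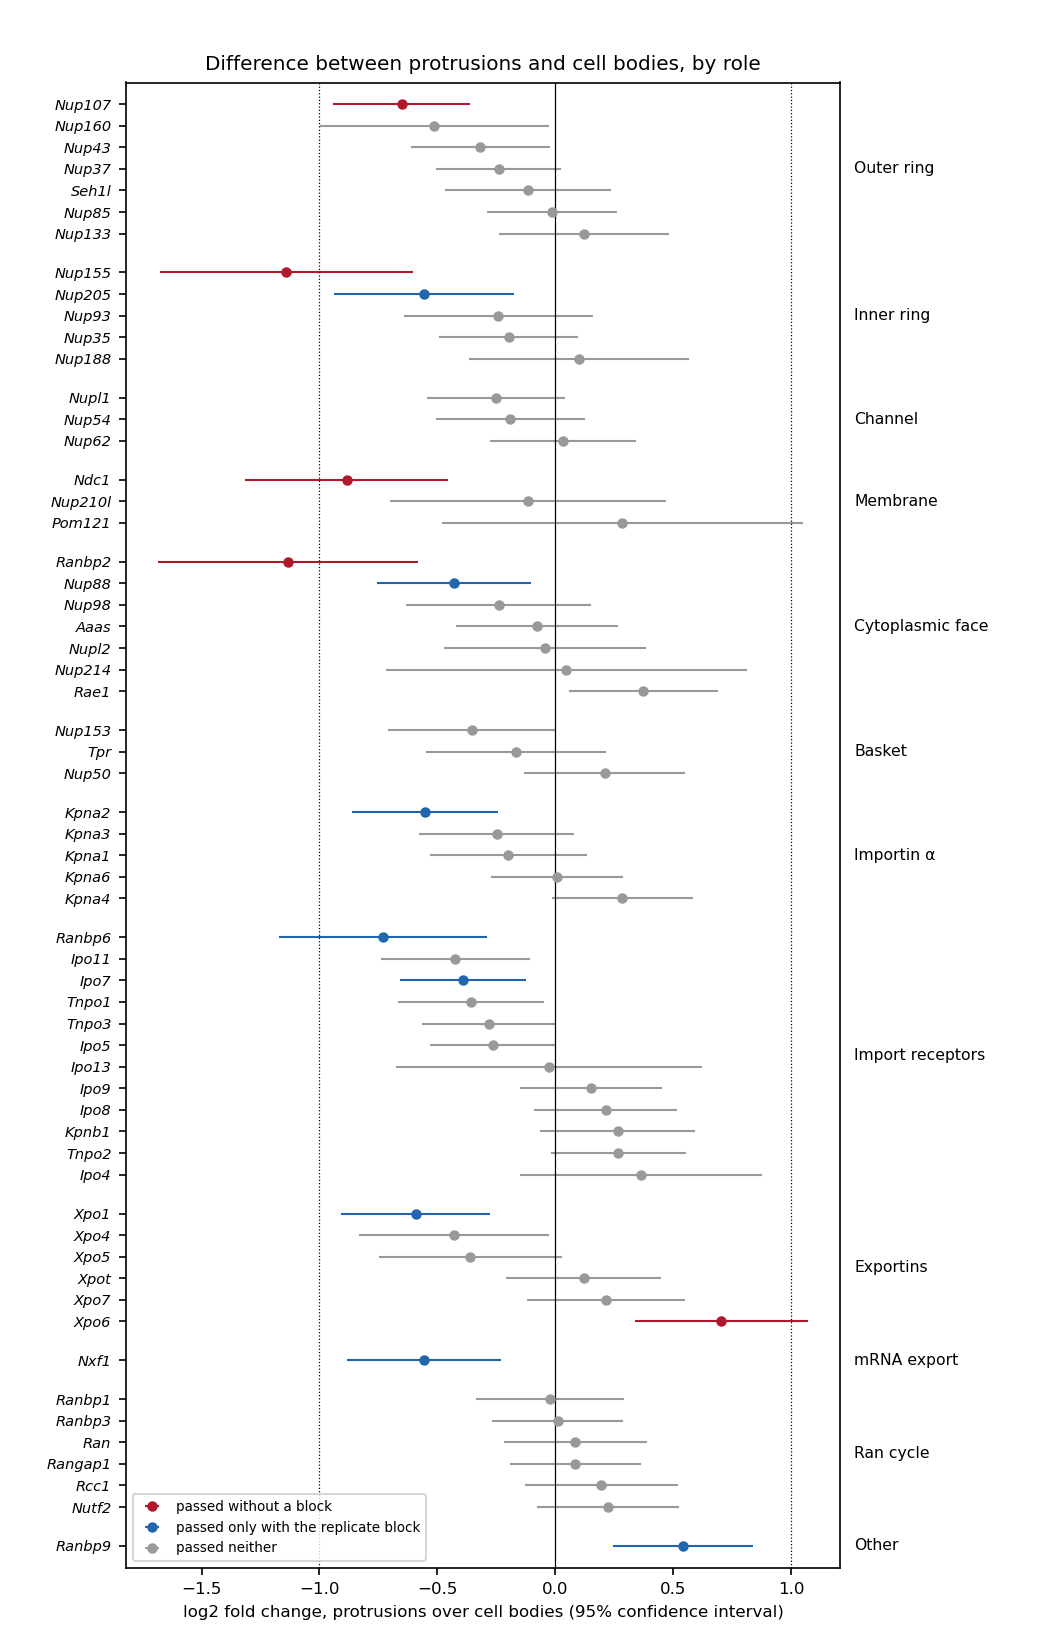
Log2 fold change (protrusions relative to cell bodies) of the 59 tested genes by role, with 95% confidence intervals from limma. Red points passed without a block (Nup107, Nup155, Ndc1 and Ranbp2 on the left, Xpo6 on the right), and blue points passed only with the replicate block. The Ran cycle genes all lie within 0.5 of zero, as do 47 of the 59 genes in all.

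The importin α proteins read classical nuclear localization signals and join importin β. Kpna2, the most abundant of them here, measured 492 and 589 TPM in cell bodies and 364 and 370 TPM in protrusions (log2 fold change -0.55, SE 0.12). Its limma adjusted p was 0.0544 without and 0.010 with the block, and its fractions did not overlap. Kpna4 had the opposite sign, with 98.1 and 88.7 TPM in cell bodies and 120 and 108 TPM in protrusions (0.29, SE 0.12, limma adjusted p = 0.172). Kpna3 and Kpna1 gave -0.25 and -0.20. Kpna6 was the most even of the 59 members, at 46.5 and 45.3 TPM in cell bodies and 46.4 and 45.9 TPM in protrusions, with an interval of -0.27 to 0.29. Importin α mRNAs summed to 78.8% of their cell body mean (77.9% without the first protrusion library). That sum averaged 818 TPM in cell bodies and 645 TPM in protrusions, of which Kpna2 alone made up 540 and 367 TPM. The lower sum therefore reflects Kpna2 and not the group as a whole. Reads of Kpna2 are uncertain because the annotation names 1 pseudogene of it.

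Import receptors of the importin β family bind cargo directly or through importin α. None of the 12 was called in limma without the block, and 1 (Ranbp6) was lower in limma voom. At an unadjusted p under 0.05, 4 were lower and none higher, against 18.7% and 12.6% of all tested genes, and 2 were lower with the block, against 13.3%. Ranbp6, a close relative of the importin Ipo5, measured 16.3 and 14.6 TPM in cell bodies and 10.3 and 8.00 TPM in protrusions (log2 fold change -0.73, SE 0.18, limma adjusted p = 0.0639 without and 0.0161 with the block). Ipo7, which carries ribosomal proteins and histone H1, was abundant, at 549 and 608 TPM in cell bodies and 444 and 437 TPM in protrusions (-0.39, SE 0.11, limma adjusted p = 0.0785 without and 0.0408 with the block). Ipo11 gave -0.42 (limma adjusted p = 0.0925 without and 0.0537 with the block). In these 3 genes both protrusion libraries lay below both cell body libraries. In all this held for 6 of the 12, against 37% of all tested genes, and 4 lay above, against 26.4%.

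Kpnb1, importin β itself and the partner of importin α, lay on the other side. It measured 323 and 262 TPM in cell bodies and 357 and 343 TPM in protrusions, with a fold change of 0.27 (95% confidence interval -0.06 to 0.59, limma adjusted p = 0.233). Tnpo2 gave 0.27 (limma adjusted p = 0.180), whereas Tnpo1, its paralogue and the receptor for PY-type signals, measured 155 and 158 TPM in cell bodies and 133 and 112 TPM in protrusions (-0.36, limma adjusted p = 0.123). Neither transportin overlapped between fractions. Of all tested genes, 26.4% lay above without overlap, as Tnpo2 did, and 37% below, as Tnpo1 did. Ipo4, at 0.36, varied most among the positive ones, from 41.2 to 60.8 TPM within the cell bodies. The remaining receptors, Tnpo3, Ipo5, Ipo13, Ipo9 and Ipo8, ran from -0.28 to 0.21.

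Exportins gave both the highest fold change among the members and one of the lower ones. Xpo6, the export receptor of actin and profilin, measured 22.5 and 27.7 TPM in cell bodies and 39.6 and 42.4 TPM in protrusions. The fractions did not overlap, and the log2 fold change was 0.70 (SE 0.15, 95% confidence interval 0.34 to 1.07, limma adjusted p = 0.0494), or 1.63-fold higher. With the first protrusion library left out it was 0.75 (limma adjusted p = 0.109). Dropping the first or the second cell body library gave a limma adjusted p of 0.118 or 0.162, dropping the second protrusion library gave 0.238, and a pseudocount of 0.1 gave 0.0501. Xpo6 lies at chr7:126101719-126200408 on the minus strand.

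Xpo1 (Crm1), the general receptor for leucine-rich export signals, was the most abundant exportin. It measured 276 TPM in both cell body libraries and 202 and 167 TPM in protrusions (log2 fold change -0.59, SE 0.13, limma adjusted p = 0.0515 without and 0.00791 with the block). Xpo4 gave -0.43 (limma adjusted p = 0.143) and Xpo5, the receptor of precursor microRNAs, gave -0.36 (limma adjusted p = 0.182), each without overlap of the fractions. With Xpo1, 3 of the 6 exportins lay lower in both protrusion libraries than in both cell body libraries, against 37% of all tested genes. Xpot, which exports tRNA, gave 0.12 with overlapping fractions. Xpo7 gave 0.22 (limma adjusted p = 0.321), and it overlaps Npm2 and Dok2 in the annotation. The 6 exportins summed to 80.5% of their cell body mean (75.6% without the first protrusion library), a sum in which Xpo1 weighs most.

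Nxf1, the receptor that takes most mRNA through the pore, measured 72.0 and 76.6 TPM in cell bodies and 54.8 and 46.2 TPM in protrusions. Both protrusion libraries were lower, with a log2 fold change of -0.56 (SE 0.13, limma adjusted p = 0.0605 without and 0.0168 with the block). Ranbp9, a scaffold of the CTLH ubiquitin ligase that binds Ran by name rather than as a carrier, measured 29.7 and 27.7 TPM in cell bodies and 42.4 and 41.6 TPM in protrusions. Replicates of each fraction lay close together, and the fold change was 0.54 (SE 0.12, limma adjusted p = 0.0530 without and 0.0208 with the block). Ranbp9 overlaps Nol7 in the annotation.

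The Ran cycle showed no call in limma, no gene at an unadjusted p under 0.05, and none in limma voom or with the block. Limma called 4.25% of all tested genes lower and 2.99% higher, and 31.3% had an unadjusted p under 0.05. Limma voom called 7.27% lower and 8.11% higher, and the block gave 13.3% and 8.08%. Among so few genes, an absence of calls is no trait of the Ran cycle. Ran measured 728 and 862 TPM in cell bodies and 824 and 858 TPM in protrusions, with a fold change of 0.09 (95% confidence interval -0.22 to 0.39). Rangap1, which switches off Ran in the cytoplasm, measured 122 and 110 TPM in cell bodies and 122 and 125 TPM in protrusions (0.09, interval -0.19 to 0.37). Ranbp1, its cofactor, gave -0.02, and Ranbp3, a helper of Xpo1, gave 0.01 with all libraries between 47.8 and 49.0 TPM.

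Rcc1, the chromatin-bound exchange factor that charges Ran, measured 54.0 and 54.4 TPM in cell bodies and 57.1 and 67.7 TPM in protrusions (0.20, limma adjusted p = 0.350). Nutf2, the carrier that returns Ran to the nucleus, gave 0.22 (limma adjusted p = 0.262), and the annotation names 2 pseudogenes of it. Both Rcc1 and Nutf2 lay higher in both protrusion libraries than in both cell body libraries, as did 26.4% of all tested genes. The intervals of all 6 genes lay within a log2 fold change of 1 either way, as did those of 53 of the 59 members and 8453 of the 11400 tested genes. The 6 mRNAs summed to 1777 and 2002 TPM in cell bodies and 1901 and 2028 TPM in protrusions, which overlap. A test of the Ran cycle against the nucleoporins was not made.

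The size of the difference depended on the replicate. The median log2 fold change of the members was -0.005 in replicate 1 and -0.26 in replicate 2, against 0.002 and -0.14 for all tested genes. Nup155 gave -0.77 in replicate 1 and -1.51 in replicate 2, Ranbp2 gave -0.77 and -1.49, and Ndc1 gave -0.55 and -1.21. Nup107 was closer, at -0.53 and -0.78, and Xpo6 was larger in replicate 1, at 0.80 against 0.61. Of the 59 members, 28 were negative in both replicates (47.5%, against 44.3% of all tested genes), 16 were positive in both (27.1%, against 32.7%) and 15 had opposite signs. Spearman's correlation of the 2 replicates' fold changes was 0.80 over the members and 0.74 over all 11400 genes.

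**Figure D3:**
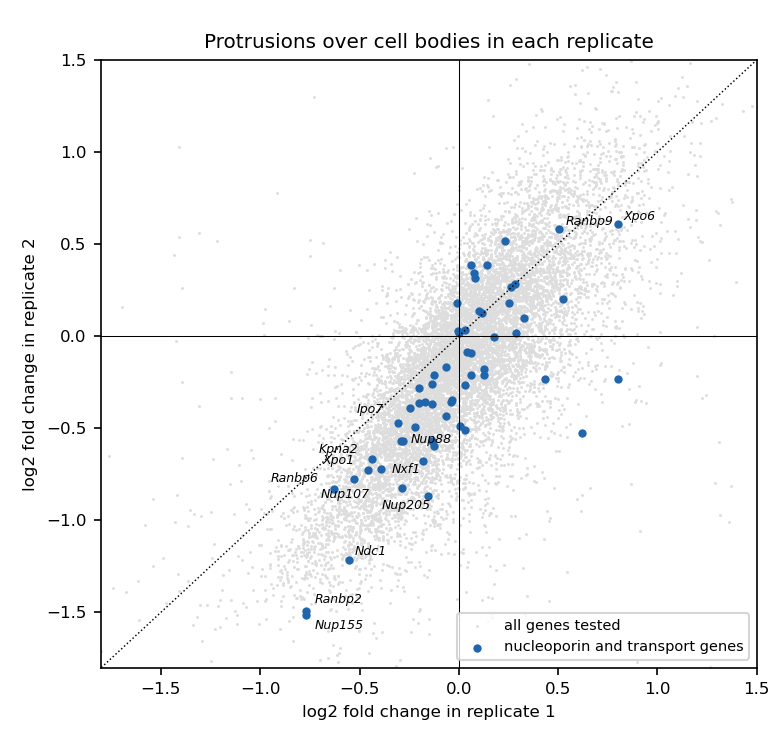
Log2 fold change (protrusions relative to cell bodies) in replicate 1 (horizontal axis) and replicate 2 (vertical axis), with tested nucleoporin and transport genes in blue, other genes in grey, and axes set to the range of the blue points. Genes that passed with the replicate block are named, and Nup155, Ranbp2 and Ndc1 fall below the dotted line of equal values.

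Fold changes varied with the base composition of the transcripts. Spearman's correlation between the log2 fold change and the GC content of the annotated transcript was 0.59 over the 59 members and 0.38 over 11313 tested genes with an annotated transcript. Ranbp2 (40.6% GC), Xpo1 (40.4%), Ranbp6 (41.1%) and Nup155 (42.7%) lay below the members' median of 47.6%, and Xpo6 (53.2%) lay above it. The median of all tested genes was 49.98%. The lowest GC content was that of Kpna3 (39.6%, fold change -0.25). The highest were those of Pom121, Ipo13, Ranbp3 and Nup62 (57.4% to 57.6%), with fold changes of 0.29, -0.03, 0.01 and 0.03. Genes that departed from the correlation included Kpna4, at 41.9% GC with a fold change of 0.29, and Ndc1, at 45.9% with -0.88. Whether base composition has a part in the differences was not tested beyond the correction that follows.

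After a loess correction of each library for transcript GC content, the members' median log2 fold change was 0.00, as was that of all tested genes. The correction also centred each library, so the median of all tested genes was fixed by it. Median centring alone put the members' median at -0.04. Spearman's correlation of the corrected fold changes with GC content was 0.27 over the members and -0.007 over all tested genes. Nup155 was then at -0.88 (limma adjusted p = 0.0463), Ndc1 at -0.70 (0.0471), Nup107 at -0.51 (0.0495) and Xpo6 at 0.69 (0.0435). Ranbp2 moved to -0.82 (limma adjusted p = 0.0541) and Ranbp9 to 0.60 (limma adjusted p = 0.0488). Xpo1 was at -0.28 (limma adjusted p = 0.172), from -0.59 before. The counts were then 3 lower and 2 higher, with backgrounds of 3.78% and 3.23%. With the correction and the block together, 7 were lower and 4 higher (the latter Xpo6, Ranbp9, Kpna4 and Ipo8), with backgrounds of 14.1% and 12.1%. The median log2 fold change of the 28 tested nucleoporins was -0.19 before the correction and -0.05 after it.

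**Figure D4:**
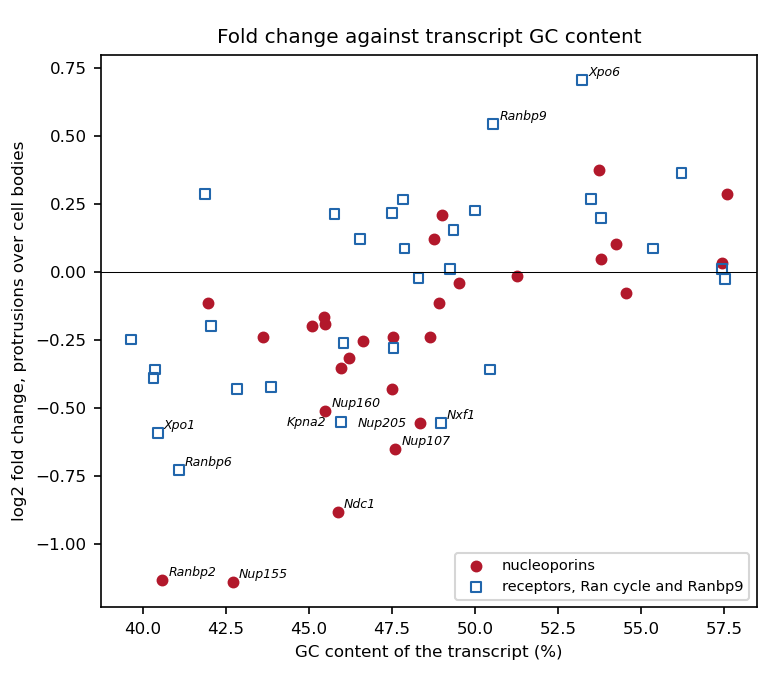
Log2 fold change (protrusions relative to cell bodies) against the GC content of the transcript in percent, with nucleoporins as filled circles and the other genes as open squares. Points tend to rise from left to right, with a Spearman correlation of 0.59 over 59 genes. Ranbp2 and Nup155 lie at lower left, and Xpo6 is the highest point, with genes of higher GC content lying below it.

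Other genes of the same pathways differed in direction as well. Of 20 tested pore and Ran genes outside the symbol rule, Tmem33, a homologue of a yeast pore membrane protein, was lower (log2 fold change -0.94, limma adjusted p = 0.0425), and Rcc2, a relative of Rcc1, and Senp2, a SUMO protease of the basket, were higher (0.90 and 0.60, limma adjusted p = 0.0425 and 0.0489). Cse1l, the exportin that returns importin α to the cytoplasm, passed only with the block (-0.50, limma adjusted p = 0.0533 without and 0.0158 with it, and 0.104 without both the block and the first protrusion library). Of 18 genes of the TREX and TREX-2 mRNA export complexes, Thoc2 was lower (-0.86, limma adjusted p = 0.0375) and Thoc3 higher (0.62, limma adjusted p = 0.0440), though both belong to the THO complex. Without the block, 5% of the pore and Ran list were lower and 10% higher, and 5.56% each of the TREX list. Over all tested genes the shares were 4.25% and 2.99%. Without the first protrusion library none of these 5 passed in limma, at adjusted p of 0.0556 for Tmem33, 0.0862 for Rcc2, 0.148 for Senp2, 0.0578 for Thoc2 and 0.0978 for Thoc3. With the GC correction Tmem33 was at -0.57 (limma adjusted p = 0.0545), Rcc2 at 0.73 (0.0643) and Thoc2 at -0.48 (0.0564), so that 3 of the 5 no longer passed, while Senp2 (0.0428) and Thoc3 (0.0463) did.

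Of 20 nuclear envelope and lamina genes, Tor1a, an ATPase of the perinuclear space, was lower (-0.74, limma adjusted p = 0.0400, and 0.0680 without the first protrusion library). With the block 6 of the 20 were lower, against 13.3% of all tested genes, among them Lbr, the lamin B receptor (-0.95, limma adjusted p = 0.0641 without and 0.00248 with the block), and Sun1, part of the bridge to the cytoskeleton (-0.87, 0.0591 without and 0.00485 with the block). Without the first protrusion library and without the block both passed in limma, Lbr at -1.30 (adjusted p = 0.0469) and Sun1 at -1.16 (adjusted p = 0.0489). The median of this list was -0.41, against -0.07 for all tested genes. Without the block 5% of the list were lower, against 4.25% of all tested genes. The lamins themselves did not pass: Lmna gave 0.25 (limma adjusted p = 0.495) and Lmnb1 gave 0.01 (limma adjusted p = 0.953). Of the 10 tested nucleoporins with phenylalanine-glycine repeats, Ranbp2 alone was called (10% lower, against 4.25% of all tested genes), and their median was -0.12, against -0.07.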

How the data were processed

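RNA was sequenced from 2 cell body and 2 protrusion libraries of YUMM1.7 cells. The authors deposited 1 table of 16537 genes, whose TPM values the authors had computed from stranded single reads aligned to mm10. TopHat is named in the study's methods, whereas STAR is listed, with FastQC, featureCounts and edgeR, in the submitters' processing notes, so the aligner is uncertain. The deposited log2 values are the authors' fold change and mean CPM from edgeR, the deposited p-value columns are the authors' p-value and FDR, and the deposited score is their likelihood ratio. Only the mean CPM among these entered any step.

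The tests used limma 3.58.1 under R 4.3.3 on log2(TPM + 0.5), its prior variance following mean level, in the 11400 genes whose TPM averaged 1 or more. Tests were two-sided and adjusted by Benjamini-Hochberg over all of them. Residual degrees of freedom were 2 (1 with the block) and prior ones 3.81 (10.2 with the block). Fold changes on this scale understate those of scarce genes. Since a gene's TPM values are whole multiples of what 1 read is worth, reads were recovered for all 16537 genes within 0.01 reads, scaled by the authors' mean CPM. That margin compares the whole numbers with the TPM values they came from, so it cannot check the scaling. The recovered reads are thus estimates. They served for depth and for limma voom with TMM factors. Of the members, 55 had more than 1000 reads in every library, and the fewest reads of a tested member were 130. The fits were tested on simulated data of independent libraries. These had no replicate effect, GC trend or foreign material, so how the fits behave under those was not tested.

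The labels call replicates biological, and the study's supplement pairs fractions by number. Deviations of same-numbered libraries from their fraction means correlated at 0.45 over 11400 genes, so a blocked fit was also made. Members and lists were chosen with earlier results of these data known, so lists are described by counts and medians beside those of all tested genes. An exact permutation test of a role's summed TPM cannot give less than p = 0.333 with 2 libraries against 2 and is not used. Genes are described where called with or without the block and as the 3 highest and 3 lowest fold changes of each role. Transcript GC content, length and 3′ UTRs came from GENCODE M21 (GRCm38), matched by symbol for 15710 genes and by RefSeq synonym for 642. Besides the overlaps given above, Ranbp1 overlaps Trmt2a, Nup43 overlaps Pcmt1, and Tpr overlaps Odr4 and Prg4 in that annotation. Pom121 overlaps Nsun5, Nup214 overlaps Fam78a, and Tnpo3 overlaps Irf5. Some members also overlap coding genes with Gm symbols. Alternatives were the block, pseudocounts of 0.1 and 1, no filter, a mean TPM of at least 5, median centring, voom, a GC correction (loess, span 0.5) with and without the block, and each library left out. Nothing else was measured here, and the study's imaging, qRT-PCR and proteomics were not analysed.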

Additional observations from a re-analysis of the deposited data

How the results depend on the processing

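With 2 libraries a fraction, call counts depended on the setting, while the members' median log2 fold change stayed between -0.27 and 0.00 and moved by less than the spread between replicates (SD 0.18). With the replicate block 921 of all genes were higher and 1513 lower, and 2 and 11 of the members. With the GC correction and the block the counts were 1372 and 1600 of all genes and 4 and 7 of the members. With voom on recovered reads they were 924 and 829, and 2 members were higher. Without a filter on low values limma called 0 genes and 0 members (1468 genes higher and 2162 lower at an unadjusted p under 0.05), where more scarce genes entered the trend and the adjustment. At a mean TPM of at least 5, 801 genes were lower and the members gave 2 higher and 8 lower. The members gave 0 higher with a pseudocount of 0.1 and 2 higher with median centring or the GC correction. With 1 library left out, all genes gave 0 to 14 higher and 0 to 144 lower, and the members 0 to 0 higher and 0 to 2 lower. A lone library of a fraction was then assumed to vary like the other fraction. Over the single members and all alternatives, 24 values gained and 25 lost a call with the sign kept, and the block changed no member's call beyond the 8 named above.

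The sign turned only for members that passed no test. With median centring, which shifts all fold changes by 0.08, the values were 0.0576 for Ranbp1, 0.0027 for Aaas, 0.0374 for Nupl2, 0.0536 for Ipo13 and 0.0648 for Nup85. With voom they were 0.0698 for Ranbp1, 0.0165 for Aaas, 0.0513 for Nupl2, 0.0709 for Ipo13 and 0.0778 for Nup85. With the GC correction, with and without the block, they were 0.101 for Ranbp1, -0.142 for Ranbp3, -0.118 for Nup62, 0.048 for Nupl2, 0.0812 for Kpna3, 0.0743 for Kpna1, 0.0012 for Nup35, 0.024 for Tpr, 0.159 for Seh1l and 0.0255 for Nup85. With each library left out in turn, they ran from -0.144 to 0.101 for Ranbp1, -0.007 to 0.0288 for Ranbp3, -0.0354 to 0.207 for Ran, -0.0425 to 0.111 for Nup62, -0.221 to 0.0668 for Aaas, -0.172 to 0.0879 for Nupl2, -0.407 to 0.502 for Nup214, -0.372 to 0.320 for Ipo13, -0.0084 to 0.0268 for Kpna6, -0.135 to 0.337 for Nup188, -0.275 to 0.0423 for Seh1l, -0.0841 to 0.0545 for Nup85 and -0.157 to 0.727 for Pom121. The cause was not tested.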
